A study of Saccharomyces cerevisiae with 13 samples.

Results

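The comparison described here set the arrays taken when cells passed from late G1 into S phase against the later arrays of the same course. Of 13 arrays in the series, the 4 labelled 10, 20, 70 and 80 min after release form the window. The 8 labelled 30, 40, 50, 60, 90, 100, 110 and 120 min form the rest. The 0 min array, of cells still held by the pheromone, was left out of the tests, apart from an alternative fit that added it to the rest. The arrays of the window were chosen by their time labels. All 6135 genes measured on at least 10 of these 12 arrays were tested. A gene is called higher or lower in the window where the adjusted p was under 0.05 and the difference had the same sign in the first cycle (10 to 60 min) and the second cycle (70 to 120 min).

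The cells were Saccharomyces cerevisiae of strain W303 in the SSD1-V background, held in G1 by alpha factor, the pheromone of the opposite mating type, and then released into the rich glucose medium YEPD. Cy5 marked the cDNA of each time point and Cy3 that of an asynchronous W303a culture, which had no pheromone treatment. Every array had the same dye orientation. Which SSD1 allele that reference culture carried is not stated by the labels. Each time point was a single array of 1 culture, so the arrays of a set are neighbouring and repeated time points and not replicate cultures. The p-values therefore rest on the spread of arrays within a set, after a common shift between the cycles, not on the variation between cultures. In the main test that spread takes in movement through the cycle inside a set. It also takes in any change of the difference from cycle to cycle.

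In budding yeast the passage from G1 into S phase runs through a commitment step called Start. A G1 cyclin with the kinase Cdc28 inactivates the repressor Whi5, which frees the transcription factors SBF and MBF. SBF is known for genes of the G1 cyclins, budding and the cell wall, and MBF for genes of the S phase cyclins, DNA synthesis, sister chromatid cohesion and repair. Histone genes, the G2/M genes driven by Mcm1 and Fkh2, and the early G1 genes of cell separation follow in later waves of the same cycle.

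Every level below is the log2 ratio of the sample to the reference culture, and every difference is the window minus the rest on that scale, with its standard error (SE) from the fit. Such a ratio shows how a gene's share of the RNA moved between time points, and it cannot tell a change in each cell from a change in the share of cells at a given stage. The spread of the ratios over the rows measured fell along the course, from a standard deviation of 0.365 at 10 min to 0.242 at 100 min. Arrays at opposite positions of the cycle opposed each other once each gene was centred, most of all 40 and 70 min (r = -0.697 across genes). As deposited, no pair of arrays correlated below 0, and the lowest r was 0.219, between those same arrays. Centring by itself pulls these correlations below 0 on average. Centred, the window arrays did not all group together. Their r was 0.397 for 10 and 20 min, 0.536 for 70 and 80, 0.315 for 10 and 70, 0.348 for 20 and 80, 0.208 for 10 and 80 and -0.079 for 20 and 70. Neighbours across the window's edges had 0.398 (20 and 30 min), 0.333 (60 and 70) and 0.395 (80 and 90).

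Of the gene lists, those of the replication fork and of cohesion held the largest shares of genes called higher in the window (24 of 33 and 8 of 12), and the CLB2 cluster of G2/M genes the largest share called lower (13 of 20). Of the 6135 genes tested, 335 (5.46%) were called higher and 335 (5.46%) lower with limma's moderated test and Benjamini-Hochberg adjustment. The genes called higher moved further than those called lower: their median difference was 0.41, with quartiles of 0.28 and 0.73, against -0.26, with quartiles of -0.35 and -0.22. A difference of at least 1, a doubling of the ratio, was reached by 28 genes upward and 8 downward. All 4 window arrays stood above all 8 arrays of the rest for 182 genes (2.97% of those tested), and all 4 stood below for 203 (3.31%). Among the called genes the sets did not overlap for 174 of the 335 higher and 168 of the 335 lower.

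The counts leaned on particular arrays. Without the 10 min array 138 genes were called higher and 105 lower, and without the 20 min array 160 and 131. Without the 110 min array 221 and 179 were called, and the genes lower numbered 212 without 40 min, 221 without 50 min, 210 without 100 min and 197 without 70 min. Whichever array was left out, 190 of the 670 called genes stayed called, 111 higher and 79 lower, and each of the 670 kept its direction. On means of the 4 runs of neighbouring arrays 202 genes were called higher and 82 lower. With 20 and 80 min alone as the window none was called (1109 genes at an unadjusted p under 0.05). The fit on means of runs has 1 residual degree of freedom, beside 7.83 prior degrees of freedom drawn from all genes. Its calls thus depend mostly on the size of a difference, and a call lost there says little about a small, steady one.

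The larger differences came in the first cycle. Fitted alone with limma, the first cycle gave 41 genes higher and 11 lower, and the second gave none (1118 genes at an unadjusted p under 0.05). Among genes called higher the median difference was 0.52 for the first cycle against 0.30 for the second, and 302 of the 335 moved further in the first. Among genes called lower these medians were -0.33 and -0.21, and 270 of the 335 moved further in the first. Over all genes the standard deviation of the difference was 0.29 for the first cycle against 0.19 for the second, so the sizes fell over all genes too. Across the 6135 genes, which are not independent of each other, the differences of both cycles correlated at r = 0.577, and 63.4% of genes had the same sign in both. No gene with an adjusted p under 0.05 was removed by the requirement of the same sign.

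**Figure D1:**
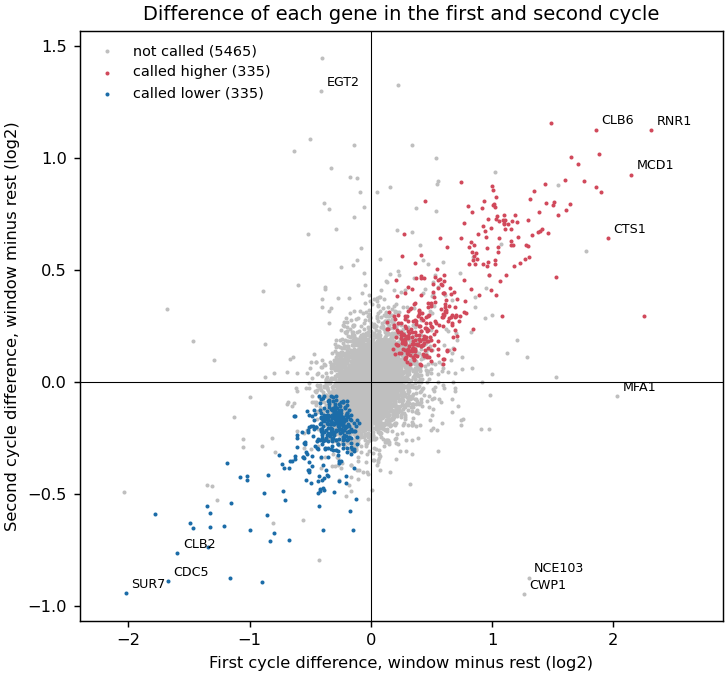
Difference of each of the 6135 genes (window minus rest, log2) in the first cycle (horizontal axis) and the second cycle (vertical axis). The 335 genes called higher lie in the upper right and the 335 called lower in the lower left, with RNR1 at 2.31 and 1.12 and SUR7 at -2.02 and -0.94, while CWP1 and NCE103 lie in the lower right.

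RNR1, which encodes the large subunit of ribonucleotide reductase, the enzyme that makes the building blocks of DNA, had the largest difference of all genes. On the window arrays, in time order, its levels were 1.34, 1.64, 0.75 and 0.83, against -1.66, -0.69 and 0.34 as the lowest, median and highest of the rest. The sets did not overlap, and the difference was 1.72 ± 0.33 (SE), or 3.29-fold (adjusted p = 0.0096, limma). The other members of the list for deoxynucleotide synthesis moved less. Of its 9 measured genes 3 (33.3%) were called higher and 1 (11.1%) lower, against 5.46% of all genes each way. The median difference was 0.09. RNR3, a second large subunit best known for its induction by DNA damage, was higher by 0.46 ± 0.10 (SE; adjusted p = 0.018), and CDC8, thymidylate kinase, by 0.25 (adjusted p = 0.039). CDC21, thymidylate synthase, differed by 0.84 but did not pass (adjusted p = 0.076), and the small subunits RNR2 and RNR4 differed by 0.06 and 0.02, with adjusted p of 0.57 and 0.84. Without the 10 or the 20 min array 1 of the 9 was called higher, and RNR3 was not; RNR3 was also not called on means of runs (adjusted p = 0.076).

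SML1 moved the opposite way. It encodes the protein that binds and inhibits Rnr1, and its levels were -0.13, -0.38, -0.48 and -0.70 at 10, 20, 70 and 80 min, against -0.02, 0.46 and 0.94 as the lowest, median and highest of the rest. All 4 window arrays lay below the rest, and SML1 fell by 0.90 ± 0.13 (SE) in the window (adjusted p = 0.0045), with a difference of -0.90 in each cycle.

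**Figure D2:**
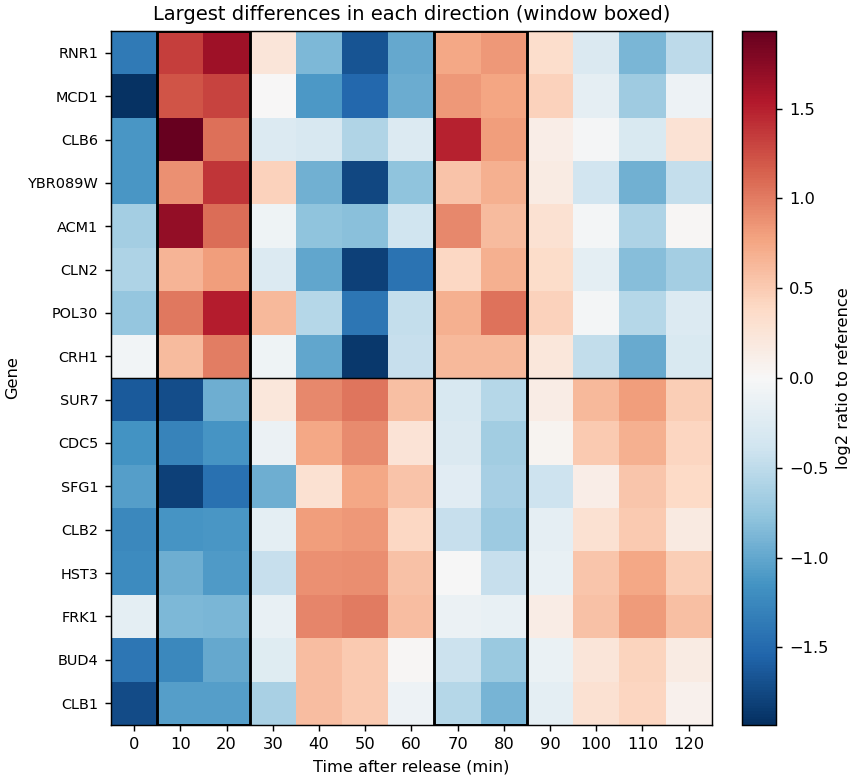
Log2 ratio to the reference on each array (columns, minutes after release; window arrays boxed) for the 8 called genes with the largest difference in each direction. RNR1, MCD1 and CLB6 are red in both boxed pairs of columns, and SUR7, CDC5 and CLB2 are blue there and red from 40 to 60 min.

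Among the G1 and S phase cyclins, CLB6 had the largest difference. CLB6 encodes a B-type cyclin that starts DNA replication, and its window levels were 1.93, 1.06, 1.48 and 0.81 at 10, 20, 70 and 80 min. The rest ran from -0.58 to 0.28 with a median of -0.27, well below every window array. The difference was 1.49 ± 0.19 (SE), or 2.81-fold (adjusted p = 0.0037). CLB5, its close relative, stood at 0.65, 0.40, 0.44 and 0.25 in the window and between -0.20 and 0.19 in the rest, a difference of 0.50 ± 0.08 (SE; adjusted p = 0.0049). CLB6 and MSA2 were higher on the earlier array of each pair: MSA2, which encodes a partner of SBF and MBF in G1 transcription, stood at 1.90 and 0.52 at 10 and 20 min and at 1.24 and 0.68 at 70 and 80 min. Its rest ran from -0.77 to 0.49, and the difference was 1.25 ± 0.30 (SE; adjusted p = 0.023), a call lost without the 10 min or the 70 min array. Together with STB1, a regulator that binds SBF and MBF (0.48, adjusted p = 0.0054), these were the 4 of 12 measured S cyclins and G1/S regulators called higher. That was 33.3% of the list, against 5.46% of all genes, and the list's median difference was 0.15. The repressor WHI5 (0.15, adjusted p = 0.45), the shared SBF and MBF subunit SWI6 (0.15, adjusted p = 0.49) and the replication kinase subunits CDC7 (0.13, adjusted p = 0.15) and DBF4 (0.15, adjusted p = 0.32) did not pass.

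Of the 16 SBF target genes measured, 6 (37.5%) were called higher and none lower, against 5.46% of all genes. The median difference of the list was 0.68, against -0.02 over all genes, and 15 of its 16 differences were positive. CLN2, a G1 cyclin that drives Start, stood at 0.65, 0.81, 0.40 and 0.68 on the window arrays and from -1.80 to 0.35 on the rest, with a median of -0.73. Window and rest did not overlap, and the difference was 1.36 ± 0.29 (SE), or 2.57-fold (adjusted p = 0.015); the call was lost without the 10 or the 20 min array. CLN1, its paralog, was nearly level across the window, at 0.66, 0.52, 0.65 and 0.66, and differed by 0.79 ± 0.20 (SE; adjusted p = 0.023). YOX1, a homeodomain repressor of M/G1 genes, stood at 1.69, 0.54, 1.05 and 0.61 against -0.65 to 0.26 in the rest, a difference of 1.10 ± 0.21 (SE; adjusted p = 0.0090).

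TOS4, a forkhead-associated domain protein (0.99, adjusted p = 0.033), TOS2, a protein of the bud neck (0.78, adjusted p = 0.0037), and HCM1, the forkhead factor of the S phase wave (0.50, adjusted p = 0.019), were the other SBF targets called. Several members did not pass in spite of large differences: SVS1 (1.21, adjusted p = 0.052), TOS6 (1.18, adjusted p = 0.13) and HO, the mating type endonuclease (0.77, adjusted p = 0.054). HO differed by 0.23 for the first cycle against 1.32 for the second. PCL1, a cyclin of the Pho85 kinase, differed by 0.09 (adjusted p = 0.57). The list had 3 members called without the 10 or the 20 min array, and the TOS4 call was lost without 10, 20, 40, 80, 110 or 120 min and with a linear time term (adjusted p = 0.050).

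**Figure D3:**
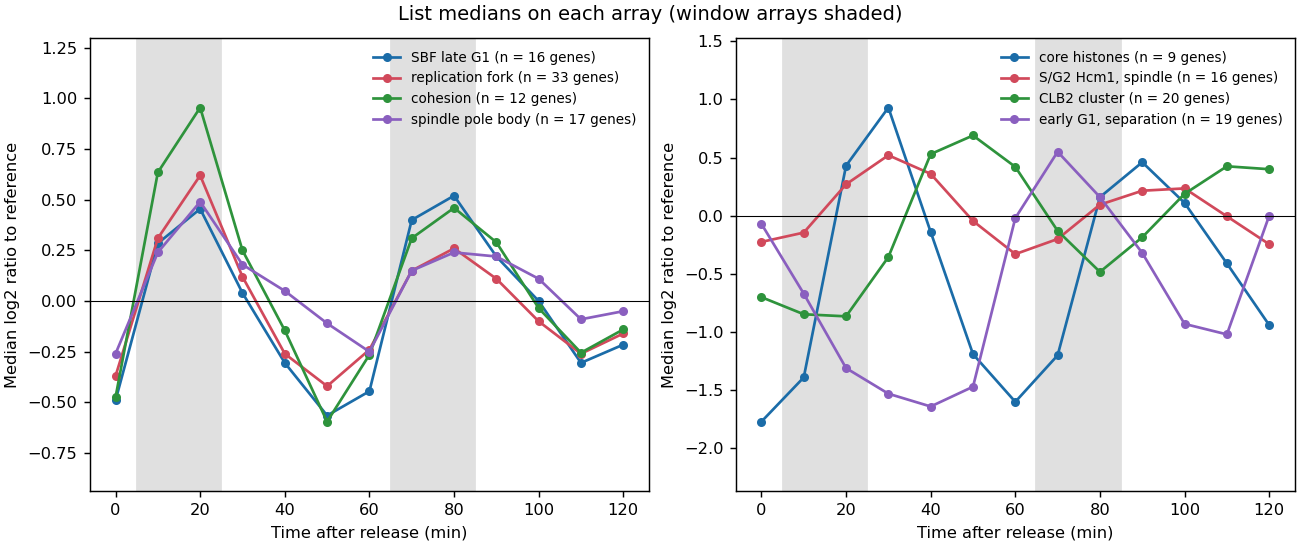
Median log2 ratio to the reference over the members of 8 gene lists on each array (horizontal axis, minutes after release; window arrays shaded). On the left, the SBF, replication fork, cohesion and spindle pole body lists peak inside both shaded windows. On the right, the core histones rise within each window from 10 to 20 min and from 70 to 80 min. The CLB2 cluster is lowest at 20 min in the first cycle and at 80 min in the second, while its 70 min median lies above those at 30 and 90 min.

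The genes of the replication fork were the list with the largest number of calls. Of 33 measured, 24 (72.7%) were called higher, against 5.46% of all genes, and none lower. Positive differences numbered 31, and the median difference was 0.39. On the window arrays the list's median level was 0.31, 0.62, 0.15 and 0.26, and it fell to -0.42 at 50 min and -0.26 at 110 min. POL30, which encodes the sliding clamp PCNA, stood at 1.02, 1.51, 0.69 and 1.05 in the window and from -1.39 to 0.62 in the rest, with a median of -0.36. No array of the rest reached the window, and the difference was 1.34 ± 0.31 (SE), or 2.53-fold (adjusted p = 0.019). YBR089W, an open reading frame whose name places it beside POL30 (YBR088C) on the other strand, followed it closely with a difference of 1.45 ± 0.33 (SE; adjusted p = 0.019). No use of strand is recorded for these values, so both may report the same RNA. The calls of POL30 and YBR089W were lost without the 10 or the 20 min array.

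Every polymerase complex of the fork had members among the calls. POL12, the second subunit of the polymerase alpha and primase complex, stood at 0.85, 0.90, 0.57 and 0.47 against -1.15 to -0.02 in the rest, a difference of 1.16 ± 0.18 (SE; adjusted p = 0.0049). POL1, the catalytic subunit of that complex, differed by 1.16 ± 0.25 (SE; adjusted p = 0.016), and its primase subunits PRI2 and PRI1 by 0.96 (adjusted p = 0.0063) and 0.22 (adjusted p = 0.046). The leading strand polymerase epsilon was represented by DPB2 (0.88, adjusted p = 0.0042) and POL2 (0.62, adjusted p = 0.046), and the lagging strand polymerase delta by POL3 (0.72, adjusted p = 0.0045), POL31 (0.39, adjusted p = 0.042) and POL32 (0.29, adjusted p = 0.041). The small polymerase epsilon subunits DPB3 and DPB4 differed by 0.01 and -0.06, with adjusted p of 0.93 and 0.57. POL1 lost its call without the 10 or the 20 min array.

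Fork factors outside the polymerases were also called. CDC45, part of the replicative helicase, differed by 1.04 (adjusted p = 0.0080), RAD27, the flap endonuclease, by 1.01 (adjusted p = 0.015), and CDC9, DNA ligase, by 0.92 (adjusted p = 0.013). The fork protection genes TOF1 (0.75, adjusted p = 0.0056), MRC1 (0.73, adjusted p = 0.010) and CSM3 (0.38, adjusted p = 0.037) and the replication initiation factor SLD2 (0.74, adjusted p = 0.0049) were called as well. Among the clamp loader genes RFC4 (0.26, adjusted p = 0.020) and RFC5 (0.25, adjusted p = 0.026) passed, while RFC1 (-0.04, adjusted p = 0.72), RFC2 (0.05, adjusted p = 0.61) and RFC3 (0.22, adjusted p = 0.092) did not. The count for the fork list was 9 without the 20 min array, 12 without the 10 min array and 15 without the 80 min array.

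Genes of sister chromatid cohesion had a larger median difference than the fork genes, 0.69. Of 12 measured, 8 (66.7%) were called higher, against 5.46% of all genes, and none lower. MCD1 encodes the cohesin subunit that separase cleaves at anaphase, and its levels were 1.21, 1.30, 0.84 and 0.76 in the window against -1.51, -0.43 and 0.45 as the lowest, median and highest of the rest. The sets did not overlap, and the difference was 1.54 ± 0.30 (SE; adjusted p = 0.0095). Its level on the 0 min array, before release, was -1.90, so the gene was lower during the arrest than on any later array. The other cohesin subunits were called too: IRR1 (1.06, adjusted p = 0.015), SMC3 (0.93, adjusted p = 0.022) and SMC1 (0.76, adjusted p = 0.017). PDS5, which keeps cohesin on the chromosomes, differed by 1.02 ± 0.28 (SE; adjusted p = 0.036), with sets that overlapped, and the loader gene SCC2 by 0.51 (adjusted p = 0.0037), while its partner SCC4 differed by 0.11 (adjusted p = 0.29) and the acetyltransferase gene ECO1 by -0.09 (adjusted p = 0.50). PDS1, the securin that holds separase inactive, differed by 0.45 (adjusted p = 0.39). IRR1 lost its call without the 10 or the 20 min array, PDS5 without each of 8 arrays (10, 20, 40, 50, 80, 100, 110 and 120 min) and with a linear time term (adjusted p = 0.067) or quantile normalization, and the list had 4 members called without 10 or 20 min.

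Repair and checkpoint genes were called in part, among them genes of mismatch repair. Of 22 repair and checkpoint genes measured, 9 (40.9%) were called higher, against 5.46% of all genes, and none lower. Their median difference was 0.16. The mismatch repair genes MSH6 (1.05 ± 0.21 SE, adjusted p = 0.010), PMS1 (0.78, adjusted p = 0.0049) and MSH3 (0.23, adjusted p = 0.0065) were called. RAD53, the kinase that carries the checkpoint signal of stalled forks, stood at 0.93, 0.89, 0.53 and 0.57 in the window and from -0.59 to 0.26 in the rest, with a median of -0.22. The sets did not overlap, and the difference was 0.95 ± 0.15 (SE; adjusted p = 0.0049). DUN1, the kinase downstream of it, differed by 0.55 (adjusted p = 0.042). RAD52, the central recombination mediator, differed by -0.18 (adjusted p = 0.11) and the damage clamp genes DDC1, RAD17 and MEC3 by 0.05, 0.08 and -0.12, with adjusted p of 0.61, 0.45 and 0.31. Without the 10 or the 20 min array 5 of the 22 were called.

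**Figure D4:**
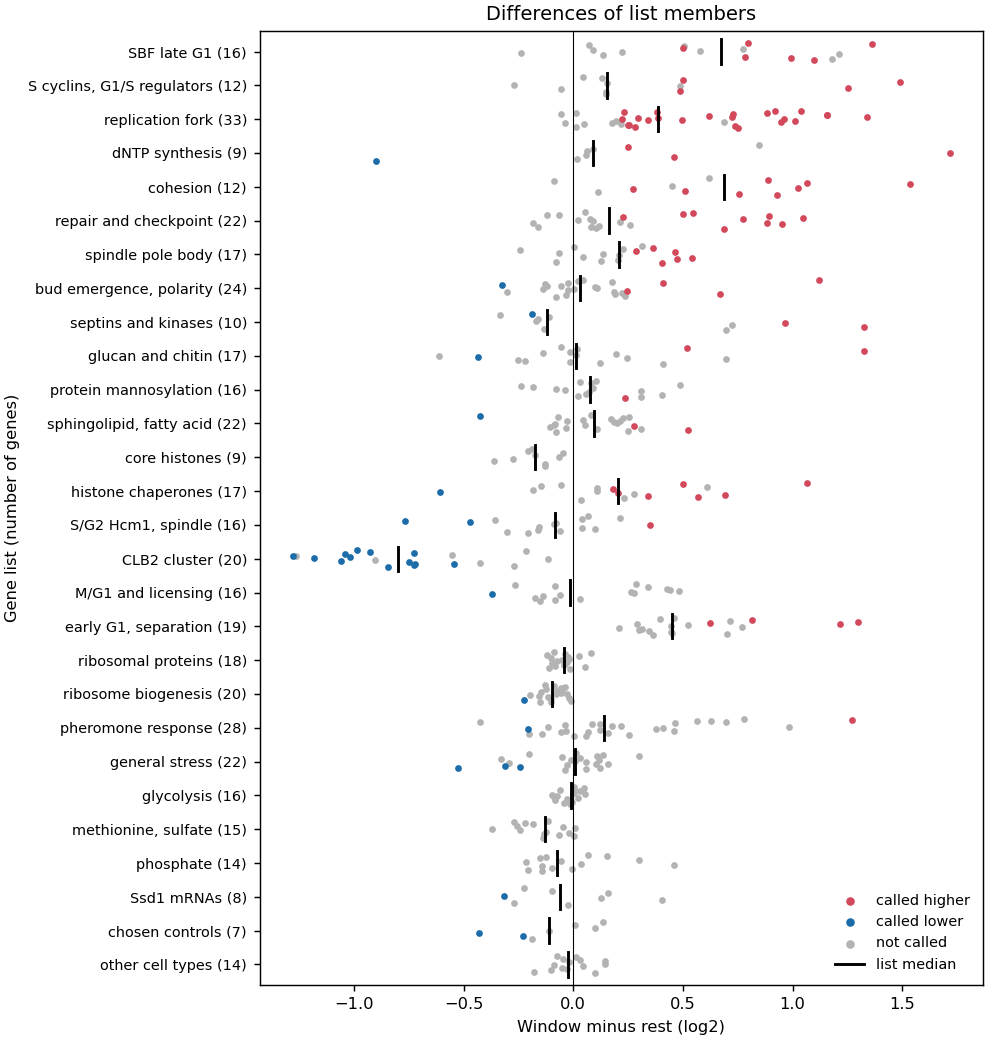
Difference (window minus rest, log2) of each measured member of 28 gene lists, with calls in colour and list medians as black bars; list sizes are in brackets. Most points of the replication fork and cohesion lists are red and to the right of 0, most points of the CLB2 cluster are blue and to the left, and the core histones and ribosomal proteins have no coloured point.

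The core histone genes were not called in either direction, although their levels moved strongly. Of 9 measured, none passed at an unadjusted p under 0.05 or after adjustment with limma, and the median difference was -0.17. Their median level was -1.39 at 10 min and 0.43 at 20 min in the first window, and -1.20 at 70 min and 0.16 at 80 min in the second. It was 0.93 at 30 min and 0.46 at 90 min, just after each window, and -1.60 at 60 min. The window thus held both low and high histone arrays. HTA2, a gene of histone H2A, had the largest absolute difference of the list, -0.36 ± 0.55 (SE; adjusted p = 0.71), with -1.67, 0.39, -1.50 and 0.25 on the window arrays and -1.78 to 1.07 in the rest. Histone genes come in near-identical pairs that may share signal on an array.

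Of 17 genes of histone deposition and acetylation measured, 7 (41.2%) were called higher and 1 (5.88%) lower, with a median difference of 0.20. Of all genes 5.46% were called each way, so the share called lower was close to that of all genes. ASF1, a chaperone of histones H3 and H4, stood at 0.97, 1.22, 0.62 and 0.78 in the window and from -0.92 to 0.51 in the rest, a difference of 1.06 ± 0.22 (SE; adjusted p = 0.012). RLF2 and CAC2 encode subunits of CAF-1, which places histones behind the fork, and differed by 0.69 ± 0.10 (SE; adjusted p = 0.0045) and 0.50 (adjusted p = 0.0037). The acetyltransferase gene RTT109 (0.57, adjusted p = 0.0049) and the chaperone gene RTT106 (0.34, adjusted p = 0.013) were also called. HTZ1, the variant histone H2A.Z, was the member called lower, with -0.62, -0.04, -0.40 and -0.07 in the window and 0.00 to 0.63 in the rest, a difference of -0.61 ± 0.14 (SE; adjusted p = 0.019). The ASF1 call was lost without the 20 min array, the HTZ1 call without 10 or 70 min or with 0 min added to the rest (adjusted p = 0.17), and 3 members were called higher without 20 min.

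Genes that build the spindle pole body, the yeast centrosome, which is duplicated in late G1, were called in 6 of 17 cases (35.3%), all higher. Of all genes 5.46% were called higher, and the list's median difference was 0.21. SPC29 and SPC42 encode core layers of the structure and differed by 0.54 ± 0.12 (SE; adjusted p = 0.016) and 0.47 ± 0.11 (SE; adjusted p = 0.023). NBP1, needed to insert the new pole body into the nuclear envelope, stood at 0.61, 0.49, 0.36 and 0.27 against -0.26 to 0.17 in the rest, a difference of 0.46 ± 0.08 (SE; adjusted p = 0.0065). TUB4, the gene of gamma-tubulin, differed by 0.40 (adjusted p = 0.0065), while SPC97 (0.13, adjusted p = 0.79) and SPC98 (-0.08, adjusted p = 0.88), which encode its partners, did not pass. Without the 10 or the 20 min array 2 members were called, SPC29 and SPC42 not among them.

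Of 24 genes for bud emergence and polarity, 4 (16.7%) were called higher and 1 (4.17%) lower, against 5.46% of all genes each way, with a median difference of 0.03. AXL2, the landmark of axial bud sites, stood at 0.44, 0.93, 0.26 and 0.55 in the window and from -1.31 to 0.10 in the rest, a difference of 1.12 ± 0.25 (SE; adjusted p = 0.015). The GTPase gene RSR1 (0.67, adjusted p = 0.024) and BUD2, which encodes its GTPase activating protein (0.41, adjusted p = 0.025), were called as well, BUD2 not on means of runs (adjusted p = 0.055). Without 10 or 20 min no member of this list was called higher, and without 80 min 1 was.

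The bud neck kinase genes KCC4 and GIN4 were the 2 of 10 septin and septin kinase genes (20.0%) called higher. Of all genes 5.46% were called each way. KCC4 stood at 1.16, 0.72, 0.71 and 0.46 in the window and from -1.10 to 0.09 in the rest, a difference of 1.33 ± 0.21 (SE), or 2.51-fold (adjusted p = 0.0049). GIN4 differed by 0.97 ± 0.21 (SE; adjusted p = 0.016), a call lost without 10 or 20 min. The septin gene CDC10 was lower by a small amount (-0.19 ± 0.05 SE, adjusted p = 0.029), with sets that did not overlap, and lost its call without each of 6 arrays (10, 20, 70, 80, 100 and 110 min), with 0 min added to the rest (adjusted p = 0.093) and on means of runs (0.31).

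Of 17 glucan and chitin genes 2 (11.8%) were called higher and 1 (5.88%) lower, the latter close to the 5.46% of all genes. CRH1, which links chitin to glucan, stood at 0.61, 0.99, 0.62 and 0.63 in the window against -1.86, -0.46 and 0.22 as the lowest, median and highest of the rest, a difference of 1.33 ± 0.30 (SE; adjusted p = 0.017) that lost its call without 10 or 20 min. CHS3, the chitin synthase of the bud neck ring, differed by 0.52 ± 0.09 (SE; adjusted p = 0.0056), and GAS5, a glucan remodelling enzyme, by -0.43 ± 0.07 (SE; adjusted p = 0.0049). With 0 min added to the rest CHS3 (adjusted p = 0.15) and GAS5 (0.061) were not called. Among 16 mannosylation genes only 1 (6.25%) was called, PMT6, a protein mannosyltransferase gene (0.24, adjusted p = 0.017). Without 20 min or on means of runs (adjusted p = 0.20) it was not. Of 22 sphingolipid and fatty acid genes, 2 (9.09%) were called higher and 1 (4.55%) lower. SUR1 (0.52, adjusted p = 0.027), an enzyme of mannosylated sphingolipids, and LCB1 (0.28, adjusted p = 0.025), a subunit of serine palmitoyltransferase, were higher. AUR1 (-0.42, adjusted p = 0.0095), inositol phosphorylceramide synthase, was lower. The SUR1 call was lost without 10, 20, 40, 70, 80 or 100 min, and that of LCB1 without 10 or 20 min. On means of runs neither LCB1 (adjusted p = 0.20) nor AUR1 (0.062) was called, and with 0 min added to the rest AUR1 was not (0.13).

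ACM1 and YBR071W, outside the lists, completed the 10 genes with the largest positive differences. ACM1 encodes an inhibitor of the Cdh1 form of the anaphase promoting complex and stood at 1.69, 1.08, 0.92 and 0.61 in the window against -0.81 to 0.29 in the rest, a difference of 1.37 ± 0.23 (SE; adjusted p = 0.0053). YBR071W was high on the earlier array of each pair, at 0.88 and 0.93 against 0.14 and 0.26 on the later, and its sets overlapped. Its difference was 1.32 ± 0.34 (SE; adjusted p = 0.028), and the call was lost without 10, 20, 40, 70, 100 or 110 min.

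Of 19 genes of early G1, which act in cell separation or in daughter cells, all differences were positive, with a median of 0.45. Of these genes 4 (21.1%) were called higher, against 5.46% of all genes. The median difference was 0.05 for the first cycle against 0.88 for the second, a change that was not tested for the list, and the list's median level was -0.67 at 10 min and -1.31 at 20 min but 0.55 at 70 min and 0.16 at 80 min. CTS1, the endochitinase that separates mother and daughter, stood at 0.19, -0.85, -0.34 and -0.16 in the window and from -2.56 to -0.22 in the rest, a difference of 1.30 ± 0.28 (SE; adjusted p = 0.015). DSE2, a daughter cell gene for a wall degrading enzyme, stood at 0.18, -1.35, -0.25 and 0.21 and differed by 1.22 ± 0.29 (SE; adjusted p = 0.021). Both had first-cycle differences above those of the second, 1.96 against 0.64 for CTS1 and 1.64 against 0.79 for DSE2. BUD9, a landmark of bud sites, differed by 0.74 and 0.89 in the cycles and by 0.81 ± 0.15 (SE, adjusted p = 0.0065) in all. Without 60 min 9 members were called, and without 10 min 2, DSE2 not among them. With 0 min added to the rest 1 member was called, and neither CTS1 (adjusted p = 0.26) nor DSE2 (0.29) passed; with a linear time term 7 were called, on means of runs 7, and with no cycle term 2, without DSE2.

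Some pheromone response genes had high levels on the 10 min array, while the list as a whole was near the reference. Its median over 28 genes fell from 1.97 at 0 min to 0.18 at 10 min and then -0.02 at 20 min, and AGA1, the anchor subunit of a-agglutinin, still had a level of 2.35 on the 10 min array. Of these 28 genes 1 (3.57%) was called higher and 1 (3.57%) lower, below the 5.46% of all genes each way. AGA2, the binding subunit of a-agglutinin, stood at 2.13, 0.65, 0.11 and 0.16 in the window and from -1.19 to 0.45 in the rest, a difference of 1.27 ± 0.37 (SE; adjusted p = 0.045), made up of 2.25 for the first cycle against 0.29 for the second. Its call was lost without any of 10, 20, 30, 40, 50, 60, 100 or 110 min, with 0 min added to the rest (adjusted p = 0.42), with a linear time term (0.053) and on means of runs (0.082). MSG5, a phosphatase of the pheromone kinases, was called lower (-0.21 ± 0.06 SE, adjusted p = 0.044) and of the arrays left out in turn only 30 or 60 min left its call standing; median centring (adjusted p = 0.054), quantile normalization, a linear time term (0.053), 0 min added to the rest (0.17) and means of runs (0.26) each ended it too. The part of carried-over pheromone response in other first-cycle differences was not tested.

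Among M/G1 and origin licensing genes 1 of 16 (6.25%) was called lower, close to the 5.46% of all genes, and none higher. It was ORC1, the largest subunit of the origin recognition complex, with -0.37 ± 0.09 (SE, adjusted p = 0.027). The replicative helicase genes MCM2 to MCM7 all had positive differences and none passed: MCM2 0.34, MCM3 0.43, MCM4 0.44, MCM5 0.48, MCM6 0.26 and MCM7 0.28, with adjusted p from 0.28 for MCM2 to 0.70 for MCM7. CLN3, the cyclin upstream of Start, differed by -0.26 (adjusted p = 0.55). The ORC1 call was lost without 10, 20, 40, 50, 70, 100 or 110 min, with 0 min added to the rest (adjusted p = 0.14) and on means of runs (0.052).

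The genes called lower were led by SUR7 and by the CLB2 cluster, the G2/M genes. SUR7 encodes a membrane protein of eisosomes, inward folds of the plasma membrane, and stood at -1.71, -0.94, -0.31 and -0.55 in the window against 0.15, 0.60 and 1.04 as the lowest, median and highest of the rest. The sets did not overlap, and SUR7 fell by 1.48 ± 0.23 (SE), 2.79-fold lower in the window (adjusted p = 0.0049). With 0 min, where SUR7 was at -1.62, added to the rest it was not called (adjusted p = 0.071). Of 20 CLB2 cluster genes measured, 13 (65%) were called lower and none higher, against 5.46% of all genes in each direction, and all 20 differences were negative, with a median of -0.80. On the window arrays the list's median level was -0.85, -0.86, -0.13 and -0.48, and it reached 0.69 at 50 min and 0.42 at 110 min.

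CDC5, the polo kinase of mitotic exit, stood at -1.29, -1.14, -0.28 and -0.67 in the window and from -0.11 to 0.91 in the rest. All window arrays lay below the rest, and CDC5 fell by 1.28 ± 0.20 (SE), 2.43-fold lower (adjusted p = 0.0049). CLB2 and CLB1, the mitotic cyclins, had differences of -1.18 ± 0.21 and -1.02 ± 0.20 (SE; adjusted p = 0.0065 and 0.010). CLB2 stood at -1.14, -1.13, -0.44 and -0.70 against -0.19 to 0.83 in the rest. Neither was called with 0 min added to the rest (adjusted p = 0.066 for CLB2 and 0.15 for CLB1). The sets of CLB1 overlapped, since its 30 min level of -0.62 lay below the -0.55 of 70 min. SWI5, a transcription factor gene of the early G1 wave, differed by -0.84 (adjusted p = 0.0090).

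BUD4 and BUD3, bud neck genes that mark the next bud site, differed by -1.04 ± 0.17 (SE; adjusted p = 0.0050) and -0.73 (adjusted p = 0.0049). HST3, a sirtuin that removes the acetyl mark of new histone H3, differed by -1.06 ± 0.26 (SE; adjusted p = 0.024), with sets that overlapped, and lost its call without 10, 20 or 80 min and with a linear time term (adjusted p = 0.050). With 0 min added to the rest BUD4 (adjusted p = 0.080) and HST3 (0.13) were not called. Cytokinesis genes were divided: MYO1, the myosin of the contractile ring (-0.73, adjusted p = 0.042), and IQG1, its scaffold (-0.75, adjusted p = 0.046), passed, while HOF1 (-0.91, adjusted p = 0.18) and CHS2, the chitin synthase of the septum (-1.26, adjusted p = 0.095), did not. CDC20, the activator of the anaphase promoting complex (-0.55, adjusted p = 0.30), and the mitotic exit kinase gene DBF2 (-0.11, adjusted p = 0.85) did not pass either. Without the 10 min array 8 members were called lower. The 0 min array, where the list's median level was -0.70, was not in the rest, and with it added 3 members were called lower.

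SFG1, FRK1 and AIM20, outside the lists, were also among the 10 genes with the most negative differences. SFG1, a transcription factor gene of pseudohyphal growth, differed by -1.19 ± 0.32 (SE; adjusted p = 0.033), with overlapping sets, and lost its call without 10, 20, 40, 50, 80 or 110 min. FRK1, a protein kinase gene, differed by -1.06 ± 0.22 (SE; adjusted p = 0.012). AIM20 differed by -0.96 ± 0.19 (SE; adjusted p = 0.011). The calls of FRK1 and AIM20 were lost without 10 min, those of SFG1 and AIM20 with 0 min added to the rest (adjusted p = 0.077 and 0.090), and that of SFG1 with a linear time term (0.081).

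Of 16 genes of the S/G2 wave and the spindle, 2 (12.5%) were called lower and 1 (6.25%) higher, with a median of -0.08. Of all genes 5.46% were called each way. The forkhead factor genes FKH1 (-0.77 ± 0.19 SE, adjusted p = 0.026) and FKH2 (-0.47 ± 0.10 SE, adjusted p = 0.016) were lower, and FKH1 stood at -0.77 and -0.64 on the earlier array of each pair and at 0.11 and -0.07 on the later. MTW1, a kinetochore gene, was higher by 0.35 (adjusted p = 0.023). The lower calls fell to 0 without 10 or 70 min and to 1 without 100 min, and the MTW1 call was lost without 10, 20 or 80 min, with a linear time term (adjusted p = 0.050) and on means of runs (0.065). With 0 min added to the rest neither FKH1 (adjusted p = 0.11) nor FKH2 (0.075) was called.

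Lists for growth and metabolism are small, and their counts stand beside the 5.46% of all genes called each way. None of 18 ribosomal protein genes, 16 glycolysis genes, 15 methionine and sulfate genes or 14 phosphate genes was called by limma; at an unadjusted p under 0.05 there were 0, 0, 1 and 5. RPL3, a ribosomal protein gene, had the largest absolute difference of its list, -0.12 ± 0.08 (SE; adjusted p = 0.38), PDC1, pyruvate decarboxylase, of its own, -0.10 (adjusted p = 0.42), MET3, ATP sulfurylase, -0.37 (adjusted p = 0.22), and PHO89, a phosphate transporter, 0.46 (adjusted p = 0.078). Of 20 ribosome biogenesis genes UTP10, part of the small subunit processome, was called lower (-0.22, adjusted p = 0.035), a call lost without 10, 20, 40, 50, 70, 100 or 110 min, with 0 min added to the rest (adjusted p = 0.10) on means of runs (0.25) and with no cycle term. All 20 differences of that list were negative, with a median of -0.09.

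Of 22 general stress genes 3 (13.6%) were called lower, against 5.46% of all genes. All were heat shock 70 chaperone genes: SSA4 (-0.53 ± 0.11 SE, adjusted p = 0.013), SSA1 (-0.31, adjusted p = 0.012) and SSA3 (-0.24, adjusted p = 0.020). Near-identical members of this family may share signal. Without 60 min 6 stress genes were called lower, and without 70 min the SSA3 call was lost. On means of runs 1 was called, and neither SSA1 (adjusted p = 0.11) nor SSA3 (0.20) passed. SSA1 was also not called with 0 min added to the rest (adjusted p = 0.072). Of 8 mRNAs known to associate with Ssd1 and not in another list, 1 (12.5%) was called lower, against 5.46% of all genes. It was CWP2, a wall mannoprotein gene (-0.31, adjusted p = 0.032). Of the arrays left out in turn, only 30, 60 or 90 min left its call standing. The call was also lost on means of runs (adjusted p = 0.11) and with 0 min added to the rest (0.10). SSD1 itself differed by -0.02.

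Markers of other cell types and control genes were looked at as well. The reference was a W303a culture, so marker ratios near 0 do not test the labels or the scale. Of 14 markers of alpha cells and of meiotic cells none was called by limma, 2 passed at an unadjusted p under 0.05, and their differences lay between -0.18 for STE3, the receptor for a-factor, and 0.14. Their median level on any array from 0 to 120 min lay between -0.13 and 0.07, which sets them against the reference culture and does not show their absolute level. Of 7 genes chosen as steady controls 2 (28.6%) were called lower, against 5.46% of all genes, TFC1 (-0.43 ± 0.07 SE, adjusted p = 0.0058), a subunit of a polymerase III factor, and TRS65 (-0.23, adjusted p = 0.020), a vesicle tethering gene. TFC1 stood below the rest on all 4 window arrays, at -0.43, -0.18, -0.01 and -0.03 against 0.17 to 0.39, so it was not steady in these data. ACT1, the actin gene, differed by 0.14. Without 10, 20 or 70 min 1 of the controls was called, and on means of runs neither was (adjusted p = 0.055 for TFC1 and 0.21 for TRS65). With 0 min added to the rest TFC1 was not called (adjusted p = 0.086).

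The rest holds arrays just after the window and arrays further from it, and the window was set against each. The comparisons share the 4 window arrays, so their results are not independent. Against 30, 40, 90 and 100 min, 270 genes were called higher (4.4%) and 360 lower (5.87%). Against 50, 60, 110 and 120 min, 383 were called higher (6.24%) and 300 lower (4.89%). Of the 33 fork genes 13 were called higher against the earlier arrays of the rest and 26 against the later. For the 16 SBF targets these counts were 5 and 11, and for the 12 cohesion genes 6 and 10. RNR1 differed by 1.28 (adjusted p = 0.025) and 2.15 (adjusted p = 0.0032), and POL30 by 0.95 (adjusted p = 0.053) and 1.73 (adjusted p = 0.0045). CLB6 differed by about the same amount from both, 1.44 (adjusted p = 0.0094) and 1.54 (adjusted p = 0.0037).

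MSA2 and YBR071W ran the other way, with larger differences from the earlier arrays of the rest than from the later. For MSA2 these were 1.38 (adjusted p = 0.033) and 1.13 (adjusted p = 0.061). For YBR071W they were 1.51 (adjusted p = 0.031) and 1.12 (adjusted p = 0.081). CLB2 cluster genes were called lower in 9 of 20 cases against the earlier arrays and 18 of 20 against the later. Of all genes 5.87% and 4.89% were called lower in these comparisons. The core histones had a median difference of -0.84 from the earlier arrays and 0.52 from the later, with none called in either. The M/G1 and licensing genes were called higher in 5 of 16 cases and lower in 1 against the earlier arrays, and in neither direction against the later. Against the earlier arrays 4.4% of all genes were called higher and 5.87% lower, so the list's share called lower was close to that of all genes. Differences between these comparisons were not themselves tested.

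These counts leaned on single arrays too. Against the earlier arrays of the rest they were 60 higher and 57 lower without 40 min, 103 and 129 without 100 min, 108 and 113 without 10 min, 136 and 142 without 70 min, and 156 and 158 without 30 min. Against the later arrays they were 193 and 93 without 50 min, and the genes lower numbered 135 without 110 min, 142 without 20 min, 165 without 120 min and 196 without 80 min.

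No gene was called for a difference between the cycles. The test of the second-cycle difference minus that of the first gave 0 calls of 6135 (0.0%) with limma, 709 genes at an unadjusted p under 0.05, and a smallest adjusted p of 0.076. That value was shared by PDR12, a weak acid exporter gene, at 0.84 ± 0.12 (SE), PYC1, pyruvate carboxylase, at -1.19 ± 0.19 (SE), FIT1, a wall protein gene of iron uptake, at 1.39 ± 0.22 (SE), HYR1, a peroxidase gene, at -0.67 ± 0.11 (SE), and STF2 at -0.47 ± 0.07 (SE). Without the 20 min array 51 genes were called and without the 30 min array 8. The genes with opposite signs and the largest change between cycles were CWP1, a wall mannoprotein gene, with 1.26 for the first and -0.95 for the second cycle, NCE103, carbonic anhydrase, with 1.30 and -0.88, and MFA1, a gene of the a-factor pheromone, with 2.03 and -0.07. MFA1 was at 1.85 at 0 min and 1.66 at 10 min, then at -0.08 at 20 min, and NCE103 was at 2.39 at 10 min.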

How the data were processed

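The deposited values are log2 ratios of Cy5 over Cy3 per open reading frame, 1 column per array; the dyes are as per the labels' protocols, while the log base and direction are not stated and were taken here from the dyes. Scanner, background correction, normalization, signal over background and genome build are not given in the labels. With natural logarithms every size would be larger on the log2 scale, and a turned ratio would turn every sign. In the direction taken, the pheromone response list had a median of 1.965 at 0 min, in cells held by the pheromone. The authors' values were centred (array means within 0.003 of 0) and were used as deposited. The table held 6295 rows: 108 were empty, 20 had no readable name, 5669 matched the RefSeq table of assembly R64 by locus tag and 41 by synonym, and 457 kept the name of their open reading frame. Rows of 27 genes with more than 1 row were averaged (median r between rows 0.62), which gave 6140 genes, 6135 of them measured on at least 10 of the 12 arrays and tested.

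Each gene was fitted with limma 3.58.1 (R 4.3.3) with a term for the window and a term for the cycle, and p-values were adjusted by the Benjamini-Hochberg method over all 6135 genes. Within each cycle the rest comes after the window, so a trend over time bears on the difference. Separate fits set the window against each part of the rest and tested the difference between cycles. The script was tested on simulated data. Tables and figures used Python 3.11.15, pandas 2.3.3 and matplotlib 3.10.9.

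The 28 gene lists (473 genes, 469 measured) came from general knowledge of yeast genes. The comparison, the lists and the tests were chosen with earlier results of these data known, so they are not independent evidence. Genes named are the 10 largest called differences in each direction, the 3 largest called members of each list (or the largest member where none was called), the 5 smallest p and the 3 largest opposite-sign changes between cycles; other list members were named after their values were seen. Alternatives were other covariates, normalizations, row rules, filters, noise models, array sets and leaving out each array. Some named genes are not reported here. Promoter letters were not analysed here, as no sequence was used.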

Additional observations from a re-analysis of the deposited data

Results flagged for a closer look

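Dixon's test set apart 1 array in 4 of the 216 sets tested (the window and the rest of 80 named genes and of the medians of 28 lists); chance gives about 1 in 20. In the window, CRH1 was highest at 20 min (0.99, against 0.61 to 0.63 on the other arrays), STE3 was highest at 70 min (-0.16, against -0.27 on each of the others), and the median of the general stress genes was highest at 10 min (0.465, against 0.19 to 0.23). In the rest, MSG5 was highest at 60 min (0.43).

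For 4 named genes the window arrays stood above all of the rest in 1 cycle and below all of the rest in the other. The change from the first cycle to the second was -0.472 for STF2, -1.185 for PYC1, -2.21 for CWP1 and -2.175 for NCE103. The limma test of that change was not passed by any of them: the adjusted p was 0.076 for STF2 and PYC1, 0.10 for CWP1 and 0.21 for NCE103.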

How the results depend on the processing

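The 335 genes higher and 335 lower in the window stayed within 1.5 times those counts with a linear time term in place of the cycle (331 and 395), no cycle term, runs of neighbouring arrays as a random block, quantile normalization, median centring, genes on all 12 arrays, the first row of a gene and no sign requirement. They moved to 202 and 82 on means of runs, to 41 and 11 in the first cycle alone, to 0 and 0 in the second cycle alone (1118 genes at an unadjusted p under 0.05) and to 0 and 0 with 20 and 80 min alone as the window (1109 genes). Adding 0 min to the rest gave 256 and 153. Leaving out 1 array gave 138 to 375 higher and 105 to 402 lower. Some of the settings within 1.5 times could change little. The correlation within runs was estimated at -0.01, so the random block fit lay close to the main fit. It says little about dependence between neighbouring arrays. The row rule bore on 27 genes, 6121 of the 6135 genes were measured on all 12 arrays, and the sign requirement removed no gene. Against 30, 40, 90 and 100 min the random block gave 159 and 201, and left-out arrays 60 to 309 and 57 to 374. Against 50, 60, 110 and 120 min the genes lower were 169 with linear time and 192 with the random block, and left-out arrays gave 193 to 390 and 93 to 324. The change between cycles had 0 to 51 genes called over left-out arrays; with runs as a random block it could not be fitted, since the model takes up the runs. Fewer arrays enter the single-cycle and 20 and 80 min fits, and the means of runs leave 1 residual degree of freedom. The cause of the other shifts was not tested. Of 66 named genes called, 27 stayed called whichever array was left out, 59 with linear time, 50 on means of runs and 43 with 0 min added. The planned promoter description was not run. The labels give no replicate numbers to pair; the cycle was a term of the fit, and the means of runs set window against rest within each cycle. Signal over background is not known, so low-signal genes could not be set apart.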

Other observations

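The Y' helicase genes YRF1-1 to YRF1-7, which lie in repeats at chromosome ends, were looked at after their values were seen. All 7 of 7 were called higher, with differences from 0.89 to 0.94 and adjusted p from 0.0049 to 0.0065 (limma), and all 7 kept the call whichever array was left out. Their median level was 1.16, 0.60, 0.82 and 0.57 on the window arrays in time order, and it ran from -0.45 at 40 min to 0.23 at 60 min in the rest. Differences were 1.01 to 1.17 in the first cycle and 0.68 to 0.79 in the second, and none of the 7 was called in the second cycle alone, where no gene was. The copies are near-identical (median r 0.99 between them over the 12 arrays) and may share signal, so they count as 1 observation.

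Other genes outside the lists, also chosen after their values were seen, were higher in the window. SPT21, an activator of histone genes, stood at 0.90, 0.77, 0.61 and 0.37 and differed by 1.14 ± 0.18 (SE; adjusted p = 0.0049), with sets that did not overlap. CSI2, a gene linked to chitin synthesis, differed by 1.19 ± 0.26 (SE; adjusted p = 0.016), ESC8, a silencing gene, by 1.14 ± 0.18 (SE; adjusted p = 0.0049), and FLO11, a flocculin gene, by 0.93 ± 0.21 (SE; adjusted p = 0.017), with 1.37 at 10 min and at most 0.05 on the other window arrays. Among genes lower in the window, SRC1, an inner nuclear membrane gene, differed by -0.83 ± 0.14 (SE; adjusted p = 0.0058), TUB1, the main alpha-tubulin gene, by -0.49 ± 0.11 (SE; adjusted p = 0.014), and NCE102, an eisosome gene like SUR7, by -0.95 ± 0.27 (SE; adjusted p = 0.043). YHP1, the paralog of YOX1, differed by -0.69 ± 0.19 (SE; adjusted p = 0.034), opposite in sign to YOX1 at 1.10. The plasma membrane proton pump gene PMA1 and its paralog PMA2 differed by -0.55 each (adjusted p = 0.046 and 0.026) and may share signal. How the calls of this paragraph's genes held with an array left out or under other settings is not given here. Of all 670 called genes 190 stayed called whichever array was left out.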
